A study of Mus musculus with 12 samples.

Results

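Cytosine methylation at CpG sites is written, copied and removed by a small set of enzymes, and their transcripts were followed here through the first days of mouse embryonic stem cell (ESC) differentiation. The set held 9 genes, out of 46517 genes listed in the count tables, and was chosen with earlier results of these data known. They were the maintenance methyltransferase Dnmt1 and its partner Uhrf1, the de novo methyltransferases Dnmt3a and Dnmt3b with their catalytically inactive cofactor Dnmt3l, the 5-methylcytosine oxidases Tet1, Tet2 and Tet3, and the glycosylase Tdg. Ensembl identifiers were matched to mouse symbols, all 9 were found, and all 9 passed the filter on low counts.

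The libraries were poly(A)-selected RNA-seq from 12 samples in 4 groups of 3. All came from the EomesEGFP reporter ESC line, in which a reporter cassette sits at the start of the endogenous Eomes gene, with a C57BL/6 background in the labels. WT cells carried the reporter alone, and Meteor KO cells additionally carried a CRISPR-Cas9 nickase deletion of Meteor, an enhancer upstream of Eomes, including the start of its long noncoding RNA. Day 0 cells were pluripotent ESCs grown on mouse embryonic fibroblast feeders, and day 3 samples were embryoid bodies formed in hanging drops under a cardiogenic protocol. The KO line was picked as an individual clone, so deletion and clone cannot be told apart, and nothing in the labels says that the 3 replicates of a group were separate cultures. P-values therefore measure the spread between these samples, which may be technical.

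Total gene counts lay between 17455927 and 23910943 per library. Platr11, an annotated noncoding RNA of the Meteor locus, lay between 1.57 and 6.12 CPM (counts scaled to 1000000 per library) in WT ESCs and at 0 to 0.0551 CPM in KO ESCs. A gene far from Meteor also followed the genotype: Upf3b, a factor of nonsense-mediated decay, averaged 52.0 CPM in WT and 0.465 CPM in KO ESCs, and its part in the results was not tested. WT day 0 replicate 3 stood apart by its epiblast markers, which summed to 421.5 CPM against 203 and 211 CPM in the other WT ESC libraries. WT day 3 replicate 3 stood apart by extraembryonic endoderm markers, at 316 CPM against 71.4 and 76.5 CPM. That library also had the lowest mesendoderm sum of WT day 3, at 968 CPM against 1860 and 1645 CPM. Its pluripotency, epiblast and neural sums were the lowest of WT day 3 as well. Feeder fibroblast markers summed to 98.3 to 318 CPM in WT and 156 to 436 CPM in KO ESCs.

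As background, DNMT3A and DNMT3B place new methyl groups, DNMT3L binds and stimulates both, and DNMT1 restores the pattern after replication at sites that UHRF1 recognises. TET enzymes oxidise the methyl group, and TDG excises the further oxidised bases so that repair can restore cytosine. Naive mouse ESCs are known for high Dnmt3l, Tet1 and Tet2, whereas cells that leave this state for an epiblast-like one raise Dnmt3a and Dnmt3b and lose Tet2. ESCs are also known to use a short Dnmt3a isoform with a start inside the gene.

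RefSeq promoter windows of GRCm38.p6 were read for all 9 genes, 16 windows in all, of which 250 bases upstream of the start are used here. The windows below are shown because their genes turn the results, and capitals mark CpG, the substrate of these enzymes. They are the internal start of Dnmt3a (chr12:3891494-3891743, plus strand, 15 CpG), the single window of Dnmt3b (chr2:153649199-153649448, plus strand, 21 CpG), the single window of Tet2 (chr3:133544391-133544640, minus strand, 51 CpG) and the last window of Dnmt3l (chr10:78055085-78055334, plus strand, 3 CpG).
Dnmt3a, internal start: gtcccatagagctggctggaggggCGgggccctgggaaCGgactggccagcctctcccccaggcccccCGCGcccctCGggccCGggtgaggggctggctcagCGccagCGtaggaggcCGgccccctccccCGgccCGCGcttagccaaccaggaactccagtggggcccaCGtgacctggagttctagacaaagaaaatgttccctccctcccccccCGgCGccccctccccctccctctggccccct
Dnmt3b: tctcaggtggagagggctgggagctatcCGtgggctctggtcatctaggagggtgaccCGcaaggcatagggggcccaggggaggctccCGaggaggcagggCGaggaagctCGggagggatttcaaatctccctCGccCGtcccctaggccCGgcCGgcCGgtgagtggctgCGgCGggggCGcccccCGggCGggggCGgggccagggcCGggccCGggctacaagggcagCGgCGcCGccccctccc
Tet2: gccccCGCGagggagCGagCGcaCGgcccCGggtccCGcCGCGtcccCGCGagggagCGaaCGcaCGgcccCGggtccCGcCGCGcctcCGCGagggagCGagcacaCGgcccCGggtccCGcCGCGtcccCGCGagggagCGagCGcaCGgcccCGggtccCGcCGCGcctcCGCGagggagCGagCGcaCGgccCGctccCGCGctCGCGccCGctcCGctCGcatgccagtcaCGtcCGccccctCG
Dnmt3l, last window: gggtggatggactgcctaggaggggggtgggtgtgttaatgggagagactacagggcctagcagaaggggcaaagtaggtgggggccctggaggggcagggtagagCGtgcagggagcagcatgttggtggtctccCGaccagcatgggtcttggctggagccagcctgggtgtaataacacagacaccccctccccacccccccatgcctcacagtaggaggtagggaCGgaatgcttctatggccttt
Over 32851 windows of the table the median was 6 CpG, with quartiles of 2 and 16. Of the 16 windows of the methylation genes, 12 held more than the median. Tet2 had more CpG than 99.9% of all windows, whereas the 3 windows of Dnmt3l held 5, 4 and 3 CpG and lay below the median. The windows at the first 2 starts of Dnmt3a, which overlap each other, held 38 and 40 CpG.

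A set of 5 motifs was searched on both strands of the same 250 bases, and none contains another. The E2F-type motif, spelled TTTCCCGC, TTTGGCGC, TTTCGCGC or TTTGCCGC, was in 2 of the 16 windows and in 1.86% of all windows. Its matches belonged to Dnmt1 and Uhrf1, the maintenance pair, and are shown for that reason with 10 bases on each side and the match in capitals (chr9:20952825-20952852, minus strand, and chr17:56304118-56304145, plus strand).
Dnmt1: gtttccgcgcGCGCGAAAaagccggggt
Uhrf1: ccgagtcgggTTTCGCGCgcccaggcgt
The GC box GGGCGG was in 11 of the 16 windows against 32.7% of all windows. The E-box CACGTG was in 3 windows, at the internal start of Dnmt3a, the second start of Dnmt3l and Tdg, against 6.02%. The cyclic AMP response element TGACGTCA was in the Tdg window alone, against 1.55%, and the octamer ATGCAAAT was in none, against 1.6%. Some windows overlapped exons. The Dnmt1 window with the E2F-type match lay inside the gene, with 166 of its 250 bases in Dnmt1 exons, and the Tet1 window had 100 bases in Tet1 exons. These matches describe letters in a window and say nothing of binding.

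**Figure D1:**
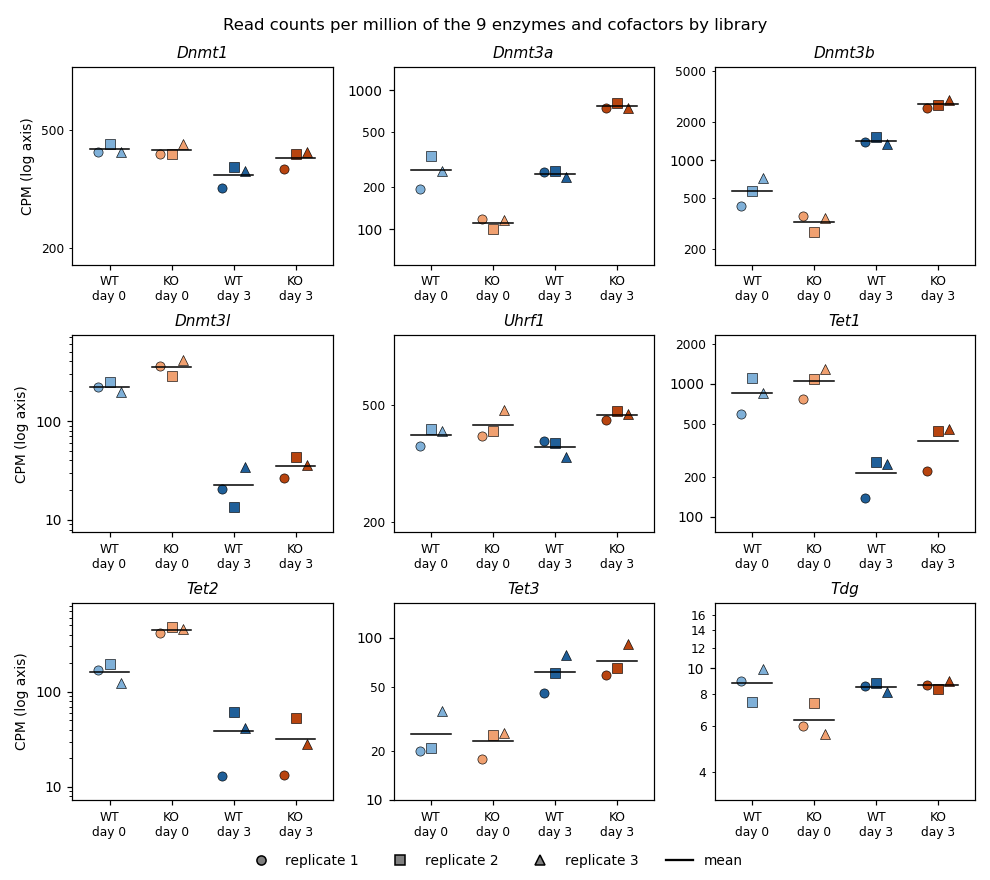
CPM (log axis) of each gene in the 12 libraries, with symbols for replicates 1 to 3 and a line for the mean of each group. Dnmt3a and Dnmt3b lay lower in KO than in WT ESCs and higher in KO than in WT at day 3, while Tet2 was high in KO ESCs and low in all day 3 libraries.

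Per kilobase of annotated exon, the order of transcript levels in WT ESCs was Dnmt3b (113 ± 28.1 CPM per kb, SD, n = 3), Uhrf1 (92.7 ± 6.57), Dnmt3l (74.6 ± 8.64), Dnmt1 (58.2 ± 2.11), Tet1 (55.0 ± 16.2), Dnmt3a (15.9 ± 4.27), Tet2 (9.69 ± 2.14), Tdg (1.63 ± 0.237) and Tet3 (1.52 ± 0.519). The ranges of Dnmt3b and Uhrf1, of Dnmt1 and Tet1, and of Tdg and Tet3 overlapped. KO ESCs had another order, with Dnmt3l first at 118 ± 21.4 CPM per kb, Dnmt3b behind Uhrf1 and Tet1 at 64.0 ± 9.49, Tet2 at 26.6 ± 2.05 and so ahead of Dnmt3a at 6.71 ± 0.585. In KO ESCs the ranges of Dnmt3l and Uhrf1, of Tet1 and Dnmt3b, of Dnmt3b and Dnmt1, and of Tet3 and Tdg overlapped. At day 3 Dnmt3b, Uhrf1, Dnmt1 and Dnmt3a led in both genotypes, and Dnmt3b reached 279 ± 18.2 CPM per kb in WT and 539 ± 39.4 in KO. In WT at day 3 Dnmt3a, at 15.1 ± 0.802 CPM per kb, overlapped Tet1, whereas in KO it stood clear of Tet1 at 46.0 ± 2.36. These levels divide by all annotated exon bases (16642 for Dnmt3a, 5106 for Dnmt3b), so a gene with long rarely used exons is understated.

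The first comparison set KO against WT cells in the pluripotent state, and the largest differences among the methylation genes were in the de novo enzymes and in Tet2. Of the 9 genes, 1 was higher and 2 were lower in KO ESCs at an adjusted p below 0.05 (edgeR quasi-likelihood test, Benjamini-Hochberg over 15673 genes). Over all tested genes 20.4% were called, 9.56% higher and 10.9% lower, and the median log2 fold change was -0.01 for the 9 genes and -0.01 for all. Folds below come from the same fit.

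Dnmt3a, a de novo methyltransferase, stood at 195.5, 337.5 and 263 CPM in WT ESC replicates 1, 2 and 3 and at 118, 100.4 and 117 CPM in KO ESCs. All KO libraries lay below all WT libraries, and the WT libraries were the more scattered. The log2 fold change was -1.23 ± 0.154 (SE), or 2.34-fold lower, with an edgeR adjusted p of 0.000769. Dnmt3b, the other de novo methyltransferase, stood at 433, 571 and 720.5 CPM in WT and at 360.1, 271 and 348.5 CPM in KO ESCs. The groups again did not overlap, and the gap between the lowest WT and the highest KO library was narrow. Dnmt3b fell by 0.80 on the log2 scale (SE 0.154, edgeR adjusted p = 0.00587). Without both WT libraries that stood apart, an alternative chosen after the data were seen, the log2 fold changes were -1.24 for Dnmt3a (edgeR adjusted p = 0.00765) and -0.67 for Dnmt3b (edgeR adjusted p = 0.03).

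Markers of the epiblast-like state moved with both genes. All 7 of the 7 epiblast markers were lower in KO ESCs, and their sum was 203 to 421.5 CPM in WT against 34.6 to 74.9 CPM in KO, with no marker at 0 in all libraries of a group. The 7 called lower became 5 without WT day 0 replicate 3, which stood apart by these markers, and 5 with limma-voom. Pluripotency markers summed to 3551 to 4208 CPM in WT and 5153 to 5570 CPM in KO ESCs, and 3 of 10 were called higher and 0 lower. Of 8 neural markers, 5 were lower and 0 higher, with sums of 307 to 378 CPM in WT and 116 to 170.0 CPM in KO. The 5 lower became 3 without WT day 0 replicate 2. The part of cell state in the Dnmt3a and Dnmt3b results was not tested. In these bulk samples fewer cells of a type and less RNA per cell cannot be told apart.

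Tet2, one of the methylcytosine oxidases, ran the other way, at 170, 196 and 125 CPM in WT and 411, 480 and 456 CPM in KO ESCs. Each KO library held more than every WT library. The log2 fold change was 1.46 ± 0.379, or 2.74-fold higher, with an edgeR adjusted p of 0.0232. The call depended on the fit. The edgeR adjusted p was 0.0589 without the replicate block and 5.55e-05 with replicate numbers as a block within each day. It was 0.0899, 0.11, 0.118 and 0.0707 without WT replicate 2, WT replicate 3, KO replicate 1 and KO replicate 3 of day 0, and 0.115 without both WT libraries that stood apart.

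Dnmt3l, the cofactor of the de novo enzymes, did not follow them. It stood at 220.4, 249.8 and 198 CPM in WT and 362, 283.5 and 410 CPM in KO ESCs, without overlap, but the log2 fold change of 0.64 ± 0.266 did not pass the test (edgeR adjusted p = 0.122, 95% interval 0.04 to 1.23). Its neighbour Aire, which is read from the opposite strand and shares 67 exon bases with it, averaged 6.84 CPM in WT and 19.4 CPM in KO ESCs, and reads of the shared stretch may have been left out or misassigned. Within libraries, the ratio of Dnmt3l to Dnmt3b per kb was 0.869, 0.747 and 0.470 in WT and 1.72, 1.79 and 2.01 in KO ESCs. The cofactor exceeded Dnmt3b in every KO ESC library and in no WT library.

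The maintenance pair and the other demethylation genes were not called at day 0. Dnmt1 averaged 429.7 ± 15.6 CPM in WT and 426 ± 19.5 CPM in KO ESCs (95% interval of the log2 fold change -0.16 to 0.14). Uhrf1 averaged 395 ± 28.0 and 428 ± 46.7 CPM (interval -0.08 to 0.32). Tet1, the most abundant of the oxidases per kb, stood at 597, 1099 and 856 CPM in WT and 763, 1084 and 1291 CPM in KO, with overlap. Its log2 fold change of 0.31 had an edgeR adjusted p of 0.0853, which became 0.0372 with replicate numbers blocked within each day. Tet3 lay between 17.9 and 35.4 CPM in both genotypes (interval -0.39 to 0.17). Tdg, at 7.41 to 9.93 CPM in WT and 5.62 to 7.33 CPM in KO, did not overlap and was not called (log2 fold change -0.47, edgeR adjusted p = 0.084).

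**Figure D2:**
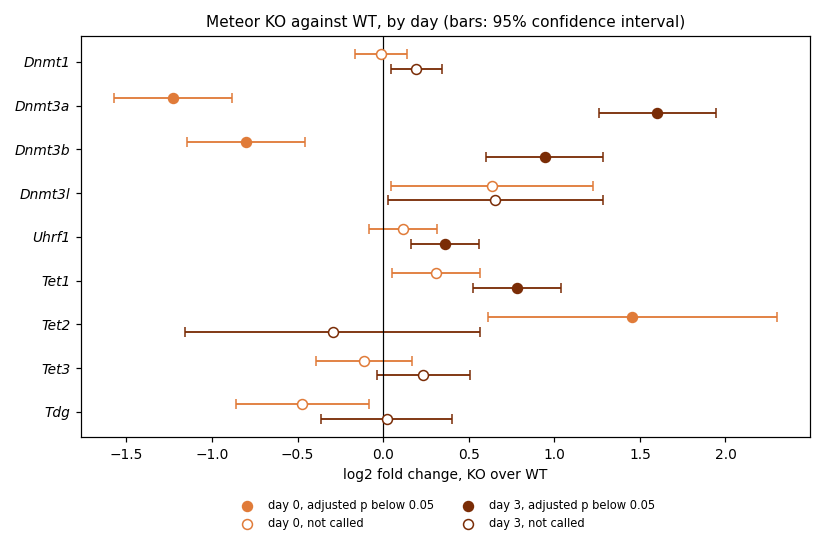
Log2 fold change of KO over WT (horizontal axis) for each gene at day 0 and day 3, with 95% confidence intervals as bars and filled points for an edgeR adjusted p below 0.05. Dnmt3a and Dnmt3b lay left of 0 at day 0 and right of 0 at day 3, and their intervals at the 2 days did not meet.

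At day 3, the question was how the differentiating KO cells differed from WT cells, and here the de novo enzymes stood on the other side. Of the 9 genes, 4 were higher in KO (Dnmt3a, Dnmt3b, Uhrf1 and Tet1) and 0 were lower. Over all tested genes 30.9% were called, 14.3% higher and 16.7% lower. The median log2 fold change of the 9 genes was 0.36, against 0.00 for all genes.

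Dnmt3a stood at 258, 261 and 237 CPM in WT and at 740.5, 811 and 745 CPM in KO embryoid bodies. The KO libraries were tightly grouped, and the lowest of them held far more than the highest WT library. The log2 fold change was 1.60 ± 0.154, or 3.04-fold higher, with an edgeR adjusted p of 0.000126. Dnmt3b stood at 1400, 1527 and 1347 CPM in WT and at 2581, 2706 and 2975 CPM in KO. The groups did not overlap, and the log2 fold change was 0.94 ± 0.154, or 1.92-fold higher (edgeR adjusted p = 0.00168).

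Uhrf1, the partner that brings DNMT1 to newly replicated DNA, stood at 378, 373 and 333 CPM in WT and 447, 479 and 468 CPM in KO. All KO libraries were the higher, by a log2 fold change of 0.36 ± 0.089 (edgeR adjusted p = 0.0133), and the adjusted p was 0.0541 without KO day 3 replicate 2. It was 0.0954 without both WT libraries that stood apart. Dnmt1 stood at 318, 374 and 364 CPM in WT and 370, 416 and 422 CPM in KO, and the groups overlapped. Its log2 fold change of 0.19 had an edgeR adjusted p of 0.0521, or 0.0186 with replicate numbers blocked within each day. Dnmt1 was called under 5 of 10 alternatives to the main fit. Among these were DESeq2 (adjusted p = 0.0178) and limma-voom (adjusted p = 0.0444). S phase genes moved beside this pair, with 8 of 19 called higher and 1 lower, beside 14.3% and 16.7% of all genes. Their sum was 4205 to 4665 CPM in WT against 5278 to 5338 CPM in KO. At day 0, where the pair was not called, 3 of 19 were higher and 2 lower, beside 9.56% and 10.9% of all genes. The day 0 sums were 5235 to 5776 CPM in WT and 5717 to 5938 CPM in KO. The part of the cell cycle was not tested.

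Tet1 stood at 138, 258 and 249 CPM in WT and 222, 443 and 455 CPM in KO. Replicate 1 was the lowest library in both genotypes, so the groups overlapped, although the KO library was the higher in 3 of 3 pairs with the same replicate number. The log2 fold change was 0.78 ± 0.116 (edgeR adjusted p = 0.001). Without the replicate block the edgeR adjusted p was 0.0842. Replicate 1 was also the lowest Tet1 library of its group at day 0. At day 3 the 1166 other coding genes with over 10 kb of exon lay at a median of -0.08 (log2) from their group mean in replicate 1 of both genotypes, and at 0.06 and 0.07 in replicate 3 of WT and KO. At day 0 the same genes lay at -0.026 in replicate 1 of WT and at -0.005 in replicate 1 of KO. The part of transcript length was not tested.

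Other genes of the set were not called at day 3. Tet2, high in KO ESCs, stood at 13.2, 61.5 and 41.9 CPM in WT and 13.3, 53.2 and 28.5 CPM in KO, with wide overlap (log2 fold change -0.30, 95% interval -1.16 to 0.57). Dnmt3l stood at 20.7, 13.5 and 34.2 CPM in WT and 26.3, 43.0 and 35.9 CPM in KO (log2 fold change 0.66, edgeR adjusted p = 0.102). Without WT day 3 replicate 3, its highest WT library, the log2 fold change was 1.04 (edgeR adjusted p = 0.0226). Tet3 averaged 61.6 ± 16.3 CPM in WT and 72.1 ± 17.3 CPM in KO (interval -0.04 to 0.51), and Tdg 8.48 ± 0.343 and 8.60 ± 0.303 CPM (interval -0.36 to 0.40).

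Cell type markers differed between the day 3 groups. All 9 mesendoderm markers were lower in KO, with sums of 968 to 1860 CPM in WT against 77.5 to 152 CPM in KO. Epiblast markers summed to 769 to 1192 CPM in WT and 1153 to 1256 CPM in KO, with 2 of 7 called higher and 1 lower. Of 8 neural markers, 4 were higher and 1 was lower. The neural sums were 379, 416 and 211 CPM in WT replicates 1, 2 and 3 and 264, 220.4 and 229 CPM in KO. They overlapped only through WT replicate 3, which stood apart, and the other WT libraries lay above every KO library. Extraembryonic endoderm markers summed to 71.4 to 316 CPM in WT and 45.9 to 118 CPM in KO. Pluripotency markers summed to 724 to 1184 CPM in WT and 1179 to 1243 CPM in KO, with 4 of 10 called higher and 1 lower. Whether the larger Dnmt3a and Dnmt3b values followed this makeup was not tested.

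**Figure D3:**
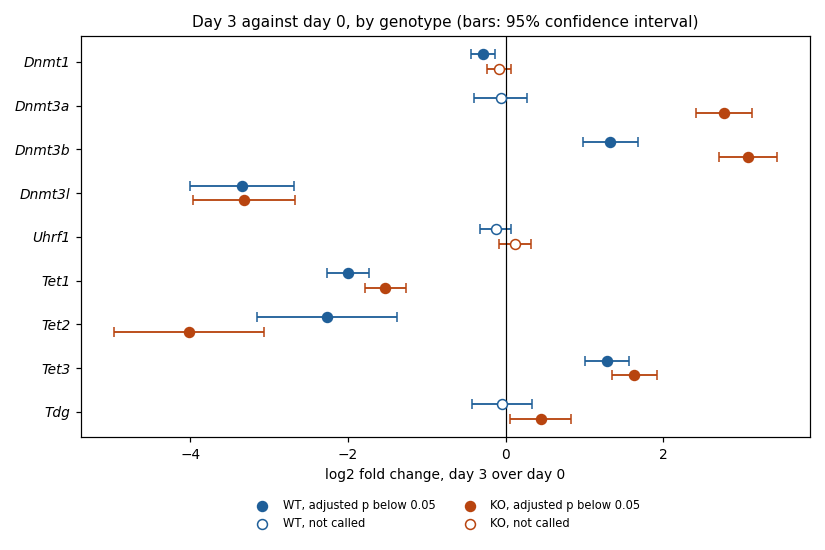
Log2 fold change of day 3 over day 0 (horizontal axis) for each gene in WT and KO, with 95% confidence intervals as bars and filled points for an edgeR adjusted p below 0.05. Dnmt3a lay at -0.06 in WT and 2.77 in KO, while Dnmt3l, Tet1 and Tet2 lay left of 0 in both.

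Over the 3 days of differentiation Tet1 and Tet2 fell and Tet3 rose in both genotypes. These comparisons use the same libraries as those above. In WT, 2 of the 9 genes rose and 4 fell, against 30.7% and 25.5% of all genes (56.2% in either direction). In KO, 4 rose and 3 fell, against 29.4% and 27.2% of all genes (56.6%). Tet1 fell by 2.00 on the log2 scale in WT (SE 0.119, edgeR adjusted p = 2.01e-06) and fell by 1.53 in KO (SE 0.117, edgeR adjusted p = 4.51e-06). Tet2 fell by 2.27 in WT (SE 0.401, edgeR adjusted p = 0.000973) and fell by 4.02 in KO (SE 0.426, edgeR adjusted p = 3.26e-05). Tet3 rose from 20.0, 20.8 and 35.4 CPM to 45.6, 61.1 and 78.2 CPM in WT, and from 17.9, 25.2 and 26.0 CPM to 59.0, 65.6 and 91.7 CPM in KO. Every day 3 library exceeded every day 0 library of its genotype, with Tet3 log2 fold changes of 1.29 and 1.63 (edgeR adjusted p = 2.92e-05 and 4.8e-06). Tet1 per kb was 38.5 ± 16.4 times Tet3 in WT ESCs and 3.76 ± 0.703 times at day 3, and in KO 48.7 ± 4.32 and 5.58 ± 1.63 times.

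Dnmt3l fell most steeply in WT among the 9 genes. It dropped by 3.34 on the log2 scale in WT and by 3.32 in KO, or 10.1-fold and 9.98-fold (edgeR adjusted p = 1.71e-05 and 1.01e-05). Dnmt3b rose in both genotypes, 2.51-fold in WT (log2 1.33 ± 0.156, edgeR adjusted p = 8.6e-05) and 8.42-fold in KO (log2 3.07 ± 0.165, edgeR adjusted p = 5.95e-07). Dnmt3a did not pass the test in WT, with a log2 fold change of -0.06 (95% interval -0.40 to 0.28), and rose 6.82-fold in KO (log2 2.77 ± 0.161, edgeR adjusted p = 8.65e-07). The WT value lay at 0.06 when libraries were scaled by their totals alone, a scaling that moved the median of all genes from 0.07 to 0.19 in this comparison. Dnmt1 fell by 0.29 in WT (SE 0.068, edgeR adjusted p = 0.00462) and was not called in KO (interval -0.23 to 0.07). Uhrf1 was called in neither. Tdg was called in KO at the edge of the threshold (log2 fold change 0.45, edgeR adjusted p = 0.0496), and the call was lost without 9 of the 12 libraries, 1 at a time.

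The difference of the KO effect between the 2 days was tested in the same fit, and it was called for 2 of the 9 genes, both higher at day 3, against 15.5% of all genes, 8.21% higher and 7.34% lower. For Dnmt3a the log2 fold change was 2.83 ± 0.218 higher at day 3 than at day 0 (edgeR adjusted p = 0.000243). For Dnmt3b the difference was 1.74 ± 0.218 (edgeR adjusted p = 0.0013). Both changed sign between the days, and the difference stayed called without any single library. Tet2 had a difference of -1.75 ± 0.541 (edgeR adjusted p = 0.054), and Tet1 of 0.47 ± 0.162 (edgeR adjusted p = 0.0747). With replicate numbers blocked within each day, the adjusted p was 0.000234 for Tet2 and 0.0306 for Tet1. The log2 difference for Dnmt3l was 0.02, with a 95% interval of -0.84 to 0.88, and it was not called.

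**Figure D4:**
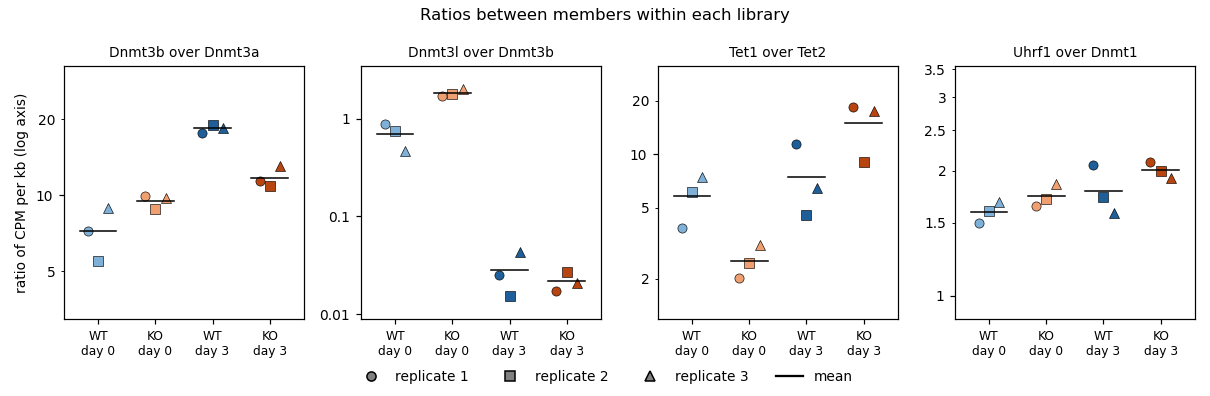
Ratios of CPM per kb (log axis) between pairs of genes within each library, with symbols for replicates 1 to 3 and a line for the group mean. Dnmt3l over Dnmt3b was above 1 in KO ESCs and below 0.05 in every day 3 library, and Dnmt3b over Dnmt3a was highest in WT at day 3.

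Ratios within a library describe the balance between members without the scaling between libraries. Dnmt3b per kb was 7.22 ± 1.71 times Dnmt3a in WT ESCs and 9.502 ± 0.619 times in KO ESCs. At day 3 the ratio was 17.7, 19.0 and 18.6 in WT and 11.4, 10.9 and 13.01 in KO. The day 3 groups did not overlap, and KO cells held less Dnmt3b per Dnmt3a. The ratio of Tet1 to Tet2 was 3.84, 6.11 and 7.48 in WT ESCs and 2.02, 2.47 and 3.09 in KO ESCs, without overlap, and at day 3 it spread from 4.58 to 18.3 over both genotypes. Uhrf1 to Dnmt1 stayed between 1.496 and 2.09 over all 12 libraries.

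Across the 12 libraries, which mix 2 days and 2 genotypes, Dnmt3a followed Dnmt3b with a Pearson r of 0.90 on the log2 scale, given as a description. Tet1 followed Dnmt1 (r = 0.92) and Dnmt3l (r = 0.91), and Tet3 followed Dnmt3b (r = 0.91). Dnmt3b and Tet2 ran in opposite directions (r = -0.90). Among 14176 coding genes the most similar to Dnmt3a were Pou3f1, an epiblast and neural POU factor (r = 0.97), Map7d3 (r = 0.96) and Tmem54 (r = 0.96). Pou3f1 averaged 23.0 CPM in WT ESCs, 5.88 in KO ESCs, 33.3 in WT and 147 CPM in KO at day 3. Dnmt3b was close to Vash2 and Plekha1 (r = 0.99 each), and Dnmt3l to Mvp, Arid5b and Hsd17b14 (r = 0.99 each). Tet2 was closest to Zbtb7c (r = 0.99), Eif2ak3 (r = 0.98) and Shmt2 (r = 0.98), the last a mitochondrial enzyme of one-carbon metabolism. Tet1 was close to Bcl7b and Wasf2 (r = 0.98 each), and Tet3 to Bcorl1 (r = 0.98), Arrdc2 and Mvd (r = 0.97 each). The closest genes to Dnmt1 were Nup188, Ubap2l and Baz2a (r = 0.96 each), to Uhrf1 Rita1, Sox13 and Isyna1 (r = 0.95 each), and to Tdg Mat1a (r = 0.91), Bmpr1b and Lypd6 (r = 0.90 each).

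**Figure D5:**
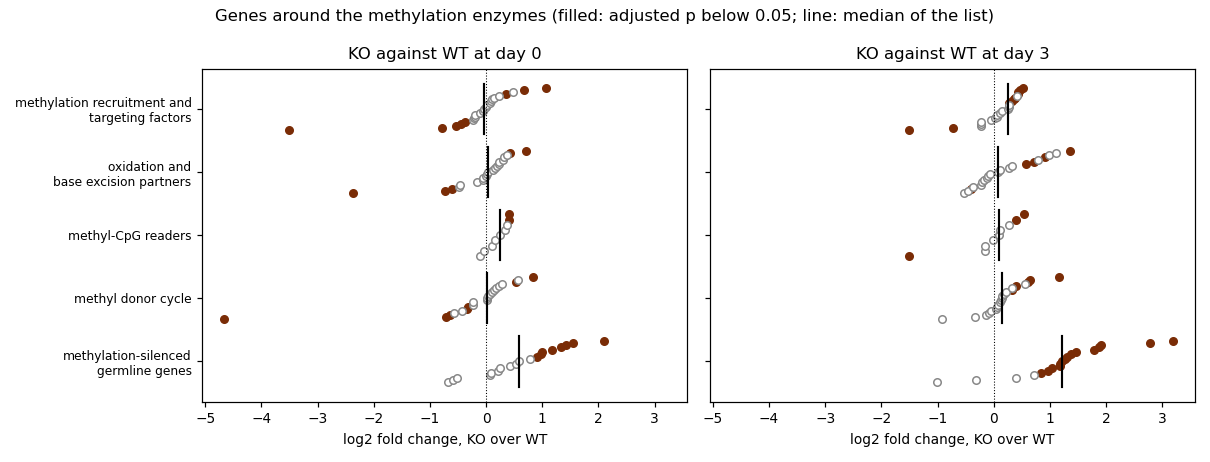
Log2 fold change of KO over WT (horizontal axis) for genes of 5 lists around the methylation enzymes, at day 0 and day 3, with filled points for an edgeR adjusted p below 0.05 and a line for the median of each list. The germline genes had a median of 0.59 at day 0 and 1.22 at day 3, and the other lists had medians between -0.03 and 0.26.

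Genes around these enzymes were counted by list, beside 9.56% of all genes higher and 10.9% lower at day 0, and 14.3% higher and 16.7% lower at day 3. Of 23 factors that recruit or target methylation, 3 were higher and 5 lower in KO ESCs, and 8 were higher and 2 lower at day 3. The 8 became 4 without WT day 3 replicate 3, KO day 3 replicate 1 or KO day 3 replicate 2, 5 without WT day 3 replicate 2 or without the replicate block, 3 without both WT libraries that stood apart, and 13 with the block within each day. The 5 lower at day 0 became 3 without WT day 0 replicate 3 or KO day 0 replicate 2, and 8 with the block within each day. Dppa3, which keeps UHRF1 from chromatin, was the most changed, at 20.0 ± 7.21 CPM in WT and 1.78 ± 0.883 CPM in KO ESCs (log2 fold change -3.52, edgeR adjusted p = 6.74e-05), and was lower at day 3 also (log2 fold change -1.51). Zfp57, a zinc finger protein that guards methylation at imprints, rose from 257 ± 54.9 CPM in WT to 540 ± 88.4 CPM in KO ESCs (log2 fold change 1.07, edgeR adjusted p = 0.00215). The H3K9 methyltransferase Suv39h1 was lower in KO ESCs (log2 fold change -0.78). At day 3 Uhrf2, the paralog of Uhrf1, was lower in KO (137 ± 14.8 CPM in WT, 82.0 ± 4.38 CPM in KO, log2 fold change -0.73), opposite to Uhrf1, while the deubiquitinase Usp7 was higher (log2 fold change 0.53).

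Of 21 tested partners of oxidation and base excision, 2 were higher and 3 lower in KO ESCs, and 4 were higher and 1 lower at day 3. The 2 higher at day 0 became 0 without WT day 0 replicate 2 or 3 or KO day 0 replicate 1 or 3, and 7 with the block within each day. The 1 lower at day 3 became 6 with library totals and 5 with the block within each day. The DNA ligase Lig3 was lower in KO ESCs (164.5 ± 18.1 CPM in WT, 99.1 ± 4.68 CPM in KO, log2 fold change -0.73), the glycosylase Neil1 was higher (log2 fold change 0.71), and Cxxc4, a binding partner of TET2, fell from 1.64 ± 1.15 to 0.300 ± 0.200 CPM. At day 3 the cytidine deaminase Apobec1 (log2 fold change 1.35), Gadd45a (0.92) and Parp1 (0.71) were higher in KO. Among 9 methyl-CpG readers, 2 were higher and 0 lower in KO ESCs (Mbd2 and Mbd5, log2 fold changes 0.41 and 0.40), and 2 were higher and 1 lower at day 3. With 1 library left out at a time, the 2 at day 0 stayed 2 without WT day 0 replicate 1 or WT day 3 replicate 3, were 1 without WT day 0 replicate 2 or WT day 3 replicate 2, and were 0 without each of the other 8 libraries. They were also 0 with library totals and with no filter. Zbtb4 was the lower one, at 6.97 ± 1.16 CPM in WT and 2.399 ± 0.585 CPM in KO, and Mbd3 (0.54) and Zbtb38 (0.40) were the higher ones.

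Of 21 tested genes of the methyl donor cycle, 2 were higher and 5 lower in KO ESCs, and 5 were higher and 0 lower at day 3. The 5 lower at day 0 became 0 without WT day 0 replicate 3, 1 without WT day 0 replicate 2 or any single KO day 0 library, and 2 without KO day 3 replicate 2 or 3. The 5 higher at day 3 became 3 without KO day 3 replicate 2 or 3, 3 with library totals, and 8 with the block within each day. Idh2, a mitochondrial source of the TET cosubstrate 2-oxoglutarate, rose from 71.1 ± 15.7 to 126 ± 3.46 CPM (log2 fold change 0.83). Threonine dehydrogenase, Tdh, which feeds one-carbon metabolism in mouse ESCs, was lower in KO ESCs (log2 fold change -0.71) and higher in KO at day 3 (log2 fold change 1.17). Mat1a was called lower in KO ESCs at 0.640 ± 0.556 CPM in WT and 0.0184 ± 0.0318 CPM in KO, near the lower limit of the counts. At day 3 Phgdh, of serine synthesis, and Gldc, of glycine cleavage, were higher (log2 fold changes 0.64 and 0.60).

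Germline genes whose promoters are known to be silenced by DNA methylation were, in part, transcribed in these ESCs. Of 19 tested, 8 were higher and 0 lower in KO ESCs, and 15 were higher and 0 lower in KO at day 3, beside 9.56% and 14.3% of all genes called higher. The list was chosen with earlier results of these data known, so these counts are a description and not a test of the list. The immunophilin Fkbp6 rose from 2.18 ± 1.00 to 9.08 ± 2.44 CPM in ESCs (log2 fold change 2.11, edgeR adjusted p = 0.00407) and from 0.755 ± 0.407 to 5.31 ± 1.46 CPM at day 3 (log2 fold change 2.78, edgeR adjusted p = 0.00104). Mael, of the piRNA pathway, was 9.06 ± 3.51 CPM in WT and 26.2 ± 7.77 CPM in KO ESCs (log2 fold change 1.55), and the germ cell transcription factor Sohlh2 was 27.0 ± 11.8 and 71.0 ± 18.6 CPM (log2 fold change 1.43). At day 3 Tuba3b, near identical to Tuba3a and so uncertain, and Rpl10l, a retrogene copy of Rpl10, were also among the largest changes (log2 fold changes 3.19 and 1.91).

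Over time these germline genes declined in both genotypes, with 16 of 19 lower and 0 higher in WT, and 12 lower and 2 higher in KO. Over all tested genes 25.5% were lower and 30.7% higher in WT, and 27.2% lower and 29.4% higher in KO. Their summed level was 167 to 331 CPM in WT ESCs, 330 to 492 CPM in KO ESCs, 76.0 to 119 CPM in WT and 193 to 230 CPM in KO at day 3. At day 0 the lowest KO sum and the highest WT sum met, and at day 3 the groups stood clear. The day 0 count was 4 without both WT libraries that stood apart, 5 without either WT day 0 replicate 3 or KO day 0 replicate 2, and 14 at day 3 without both WT libraries. Without KO day 0 replicate 1, 2 of the list were called lower at day 0.

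Several genes shared sequence with other loci, which bears on what was counted. Of all 100-base words in annotated Tdg transcripts, 22.6% also occurred in a pseudogene, and 1 of these, Gm9855, collected 31.9 to 37.8 CPM on average in the 4 groups while Tdg itself collected 6.31 to 8.77. Reads that fit several places were not counted, so the Tdg level is uncertain. The share was 5.53% for Uhrf1 and 4.47% for Dnmt3b, whose near copy Dnmt3c averaged at most 0.191 CPM, and 0.1% or less for the other genes. Counts by gene cannot separate the long from the short Dnmt3a isoform.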

How the data were processed

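Total RNA from 12 samples (4 groups of 3) was poly(A)-selected and sequenced as single 100-base reads. The authors trimmed reads with cutadapt 1.3, aligned them with STAR 2.4.2a to GRCm38 and deposited raw counts per Ensembl gene from HTSeq 0.6.1, with reads of several places left out (36.52 to 44.09% of reads per library). Labels and paper differ on the library kit and the sequencer, and the paper's methods for these libraries do not call the kit stranded. The strand setting of the counting is not given in the sources used here, so overlapping opposite genes are uncertain. Rows for unassigned reads were removed, of which 6.14 to 9.32% fell in no gene and 0.7 to 0.75% in several.

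Genes above 1 CPM in at least 1 library (15673) were fitted with edgeR 4.0.16 (R 4.3.3, TMM scaling, quasi-likelihood F-test) on all 12 libraries, with group and replicate number as terms. The study's methods for these libraries include a batch factor without saying what the batch was. The sentence that gives it names GapmeR against control as the comparison. The replicate number was used here as a block. P-values were adjusted over all tested genes and called below 0.05. CPM uses TMM-scaled totals, errors are SD over n = 3 or the SE of the fit, and intervals are 95%. Alternatives were no block, a block within each day, limma 3.58.1 voom, DESeq2 1.42.0, other scalings and filters, the compared groups alone, and each library left out. Same-numbered libraries of 1 day deviated together (r 0.339 to 0.719 in 6 of 6 pairs, 10901 genes), and those of different days did not (mean r -0.048), so the numbers, which the labels give, paired libraries within a day. The main fit used 1 block shared by both days, which this check did not bear out. With the block within each day, 4 of the 9 genes were called at day 0, 5 at day 3 and 4 in the difference between days. On simulated counts the test recovered 98 of 100 genes changed by 2 on the log2 scale in KO against WT at day 0, 36 of 50 changed by 1, and 7 of 50 changed by 0.5, among 15673 genes. The simulated libraries held no effect of replicate number, and only genes averaging over 50 counts were changed, so recovery in the real libraries may differ.

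Exon lengths, overlaps and shared words came from GENCODE M21 (46005 of 46517 genes matched), and promoter sequences from RefSeq (GRCm38.p6). The text names all 9 genes, the 3 coding genes closest to each by Pearson r (some are not reported here), and up to 3 called genes with the largest change per list and comparison. Members and lists were chosen with earlier results of these data known.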

Additional observations from a re-analysis of the deposited data

Results flagged for a closer look

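The difference between KO and WT cells was not the same at both days for the de novo methyltransferases, by the test of that change itself; deletion and clone cannot be told apart. For Dnmt3a the log2 fold change of KO over WT was -1.23 at day 0 and 1.60 at day 3, and the difference of 2.831 had an edgeR adjusted p of 0.000243. For Dnmt3b the values were -0.80 and 0.94, and the difference of 1.745 had an edgeR adjusted p of 0.0013. At each day the KO and WT libraries of both genes did not overlap.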

How the results depend on the processing

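Dnmt3a and Dnmt3b kept their direction and their call at day 0, at day 3 and in the difference between days under every alternative and without each library in turn. The count of called genes in the difference was 4 rather than 2 with the replicate block within each day (Tet1 and Tet2 added) and 4 with no filter on low counts. It was 3 in the difference with limma-voom and with DESeq2. At day 0 it was 5 rather than 3 when the compared groups alone were fitted, with Dnmt3l and Tet1 added. At day 3 it was 6 rather than 4 with DESeq2 and with the compared groups alone. It was 5 at day 3 with limma-voom, with RLE scaling and with no filter on low counts, and 3 without the replicate block. Without each library in turn the count was 2 to 4 at day 0, 3 to 5 at day 3, 6 to 6 over time in WT, 6 to 7 over time in KO, and 2 to 3 in the difference. The reversals concerned values near 0 that were not called. The Dnmt3l difference between days was -0.039 without the replicate block, -0.007 with limma-voom and -0.023 with library totals, and ran from -0.328 to 0.391 without each library. With library totals Tdg was -0.051 at day 3, and over time in WT Tdg was 0.067 and Dnmt3a 0.059. Without each library Dnmt1 ran from -0.06 to 0.037 and Tet3 from -0.24 to 0.008 at day 0, and over time in WT Dnmt3a ran from -0.262 to 0.141 and Tdg from -0.194 to 0.077. Without both WT libraries that stood apart, Tet3 was 0.012 at day 0 and Tdg 0.083 over time in WT. The cause was not tested. Of 423 single-gene log2 fold changes under the other settings, 386 kept their direction and their side of the threshold, 10 lost the call, 19 gained it and 8 reversed, and without 1 library these were 509, 14, 7 and 10 of 540.

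Counts over all genes moved more. They were 3201 at day 0, 4846 at day 3 and 2436 in the difference, against 5447, 7347 and 4889 with the replicate block within each day, and 5356 at day 0 with the compared groups alone. At day 0 they were 1717, 1765 and 1793 without WT day 0 replicate 3, KO day 0 replicate 2 and KO day 0 replicate 3. At day 3 they were 3161 and 2907 without KO day 3 replicates 2 and 3. In the difference they were 1391, 1505 and 1507 without KO day 0 replicate 2, KO day 3 replicate 2 and KO day 3 replicate 3. Without both WT libraries that stood apart they were 1684, 2754 and 1438. At this depth Tdg rested on about 9 CPM, so small changes of it were hard to see.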
